A study of Homo sapiens and Mus musculus with 19 samples.

Results

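Intergenic long noncoding RNAs (lncRNAs) on chromatin were followed in mouse embryonic stem (mES) cells with and without depletion of Nsun2. Members were annotated lncRNA genes (biotype lncRNA or lincRNA in GENCODE M21, GRCm38) that overlapped no other gene on either strand, lay more than 5 kb from every protein-coding gene and had at least 10 counts in 3 or more of the 6 siControl and siNsun2 libraries. Of the 54446 genes in the mouse tables, 5535 had this biotype, 3763 of these overlapped no gene and 3206 also lay over 5 kb from coding genes. The count rule kept 1963 of the 3206 genes, or 61.2%, and left 1243 under it. Because the rule used both groups, 51 members had 10 counts in every siNsun2 and no siControl library and 0 members the reverse, and 471 members reached 10 counts in more siNsun2 than siControl libraries compared with 42 in the other direction. In all 6 libraries 1400 members had 10 counts.

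The study asked how 5-methylcytosine (m5C) on chromatin-associated RNA (caRNA) is written, oxidised and read. The siControl group was mES cells transfected with a control siRNA and the siNsun2 group the same cells transfected with siRNA against Nsun2, with 3 libraries each. In both, cells were cultured in serum with LIF, CHIR99021 and PD0325901, passaged on gelatin to remove feeder cells and transfected with Lipofectamine RNAiMAX. The source is labelled embryos, and per the methods the wild-type mES cells were a gifted line, so that the libraries need not represent more than 1 line. No label says that the replicates came from separate cultures, so p-values measure the spread between these libraries, which may be technical. A further library, labelled mESC, Pscp1 WT, replicate 3, came from another experiment and entered no comparison.

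The 6 libraries held 58078323 to 66832780 gene counts. The share of read records that fell outside every annotated gene was 19.6% to 20.2% in siControl and 28.9% to 29.9% in siNsun2. Nsun2 stood at 133, 126 and 130 counts per 1000000 (CPM, TMM-scaled) in siControl and 98.7, 106 and 103 CPM in siNsun2, with no overlap of the groups (log2 change -0.34, SE 0.03, adjusted p = 2.67e-16 by edgeR quasi-likelihood). Of the 10788 tested genes at least 10 times above the background level described below, 57.6% were called lower, with a median log2 change of -0.19. Of 8 markers of mES cells, 7 had a mean of at least 1 CPM, and Sox2 was listed at 0 in every library. Sox2 lies inside another gene on its strand, and 6443 of 6457 genes in that position were at 0 in all 6 libraries. The summed level of these markers was 1237 to 1279 CPM in siControl and 1056 to 1080 CPM in siNsun2. The 7 feeder fibroblast markers summed to 47.4 to 49.5 and 35.7 to 36.8 CPM, the 8 markers of differentiating cells to 39.5 to 41.6 and 34.0 to 40.7 CPM with Sox1 at 0, and the 7 markers of 2-cell-like cells to 0.982 to 1.37 and 2.94 to 3.23 CPM. None of the markers of 2-cell-like cells reached a mean of 1 CPM, and the highest was at 0.523 CPM. The part of these marker differences in the results below was not tested.

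NSUN2 is a methyltransferase that places m5C on transfer RNAs and on other RNAs, often at a cytosine followed by a G-rich stretch. Intergenic lncRNA genes have promoters of their own, are usually spliced and poorly conserved, and many of their transcripts stay in the nucleus near the site of synthesis. In mES cells some of them, such as the Platr genes (pluripotency-associated transcripts), are expressed with the pluripotency network, whereas most are transcribed at low levels. At a low level, reads from the gene cannot be separated from reads that fall anywhere in the genome. Olfactory receptor genes, whose products sense odours in the nose and which are silent in most other cells, served as the measure of that background.

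The members with the largest changes well above that background carry the comparison, and the first 150 bases of the longest annotated transcript of each of 8 of them are shown (GENCODE M21 transcripts, RNA sense, 5′ to 3′, written with t). Capitals mark every match to CNGGG, the sequence context of NSUN2-dependent m5C, searched on the transcript strand alone. The genes that rose were Gm12690 (chr4:99569500-99573011, plus strand), C330004P14Rik (chr10:15791777-15807065, plus strand), Platr3 (chr2:135648907-135652063, plus strand) and Gm48395 (chr14:20215502-20221425, plus strand).
Gm12690: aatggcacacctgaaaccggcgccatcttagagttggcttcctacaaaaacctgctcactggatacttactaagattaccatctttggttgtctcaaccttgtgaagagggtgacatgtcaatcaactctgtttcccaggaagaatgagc
C330004P14Rik: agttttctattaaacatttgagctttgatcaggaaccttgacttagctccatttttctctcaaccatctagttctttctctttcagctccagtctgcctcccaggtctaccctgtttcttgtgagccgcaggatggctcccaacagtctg
Platr3: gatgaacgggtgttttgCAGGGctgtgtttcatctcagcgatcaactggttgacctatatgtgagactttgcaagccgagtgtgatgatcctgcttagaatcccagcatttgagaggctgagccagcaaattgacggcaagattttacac
Gm48395: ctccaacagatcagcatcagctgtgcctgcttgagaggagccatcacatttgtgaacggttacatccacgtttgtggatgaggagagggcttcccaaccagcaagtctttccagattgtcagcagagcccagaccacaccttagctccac

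The genes that fell were 2610035D17Rik (transcript at chr11:113043895-113201838, minus strand), Gm33027 (transcript at chr7:129398102-129403090, minus strand), Gm49504 (chr16:3346350-3348370, plus strand) and Gm29630 (chr1:132274716-132280411, minus strand).
2610035D17Rik: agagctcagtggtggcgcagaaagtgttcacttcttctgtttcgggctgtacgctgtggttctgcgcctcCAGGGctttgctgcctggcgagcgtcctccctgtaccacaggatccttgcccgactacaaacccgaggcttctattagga
Gm33027: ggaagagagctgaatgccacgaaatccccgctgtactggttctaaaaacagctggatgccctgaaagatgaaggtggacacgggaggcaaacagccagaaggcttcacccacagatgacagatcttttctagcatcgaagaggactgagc
Gm49504: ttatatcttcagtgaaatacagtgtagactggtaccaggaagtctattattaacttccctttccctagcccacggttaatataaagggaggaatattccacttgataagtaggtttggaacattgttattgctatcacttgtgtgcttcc
Gm29630: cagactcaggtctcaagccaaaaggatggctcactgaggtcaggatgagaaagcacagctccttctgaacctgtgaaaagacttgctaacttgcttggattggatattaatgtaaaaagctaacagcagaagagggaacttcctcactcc

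Of the 8 stretches, that of Platr3 and that of 2610035D17Rik held 1 match each and the others 0. Over their whole length, the transcripts held 1 to 16 matches, the most in Gm33027, whose transcript is 4664 bases long. The motif was present in the first 150 bases of 901 of 1961 members with a transcript that long, or 45.9%, and of 57.8% of all 135671 annotated transcripts. No site of m5C was measured in these libraries, and a match is a run of letters only.

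Most members lay close to background. Levels were taken per kb of gene span, introns included, per 1000000 read records. Relative to the mean olfactory receptor level, 1603 members (81.7%) were under 3 times, 243 (12.4%) at 3 to under 10 times and 117 (5.96%) at least 10 times above, with the bands set on the mean of all 6 libraries. The median member stood at 1.44 times the olfactory receptor level. In the Pscp1 WT library, which held 10.7% of its records outside genes, 608 members had 10 counts, among them 363 (22.6%) of the lowest band, 137 (56.4%) of the middle band and 108 (92.3%) of the highest.

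The bands differed in structure. The median gene span was 12.7 kb in the lowest band, 4.75 kb in the middle band and 6.16 kb in the highest. The nearest protein-coding gene lay at a median of 77.7, 30.9 and 34.9 kb. Single-exon genes numbered 14, 12 and 14 in the bands, or 0.873%, 4.94% and 12.0% of their members. The median GC content of the longest transcript was 45.8%, 47.8% and 47.2%. CNGGG occurred at a median of 3.33, 4.14 and 3.96 matches per kb of transcript. Within the highest band, the members called lower had a median density of 3.32 per kb, those called higher 4.65 per kb and those not called 4.02 per kb, over 40, 15 and 62 genes.

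The olfactory receptor level was higher in every siNsun2 library. Summed over 1093 genes it was 0.0195, 0.0215 and 0.0214 counts per kb per 1000000 records in siControl and 0.0300, 0.0321 and 0.0296 in siNsun2, which is 1.47 times higher on average. Two-sided exact permutation tests on 3 libraries against 3 allow no p below 0.1. By this exact permutation test, the olfactory receptor level and the other 15 shares, levels and ratios all had groups without overlap and p = 0.1, also when adjusted over the 16 quantities, and none could pass 0.05. The percentage of records outside genes was 1.47 times higher as well.

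The lowest band was higher by more than the sum of all 1093 olfactory receptor genes. The size of this excess depends on which of these genes are summed, as given below for single members. Its summed level was 0.0245, 0.0261 and 0.0258 counts per kb per 1000000 records in siControl and 0.0401, 0.0431 and 0.0394 in siNsun2, 1.60 times higher. Relative to the olfactory receptor genes of the same library, it stood at 1.23 ± 0.0271 (SD, n = 3) in siControl and 1.34 ± 0.00570 in siNsun2. The 1090 members of this band with 10 counts in all 6 libraries stood at 1.26 ± 0.0282 and 1.35 ± 0.00494, and the band together with the genes under the count rule at 1.15 ± 0.0260 and 1.26 ± 0.00560. The intergenic lncRNA genes under the count rule, which are not members, were at 0.351 ± 0.0138 and 0.450 ± 0.0172 times the olfactory receptor level.

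Per 1000000 records, the highest band was lower in siNsun2. Without Gm26917 (described below) its level was 1.02 counts per kb per 1000000 records in each siControl library and 0.940, 0.928 and 0.953 in siNsun2. The records include those outside genes, which were 19.9% on average in siControl and 29.4% in siNsun2. Scaled by total gene counts, the median log2 change of all 117 members of this band was 0.03. In these bulk libraries, fewer cells that express a gene, less of its RNA per cell and a larger share of other reads cannot be told apart. The ratio of the band to the olfactory receptor genes was 52.3, 47.3 and 47.6 in siControl and 31.3, 28.9 and 32.2 in siNsun2. The middle band, at 6.34, 5.82 and 5.79 times in siControl and 4.56, 4.24 and 4.55 times in siNsun2, was also lower relative to the olfactory receptor genes, although its level per 1000000 records was 1.09 times higher. In the Pscp1 WT library the ratios were 1.05, 24.1 and 222 for the lowest, middle and highest band, with an olfactory receptor level of 0.00580.

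**Figure D1:**
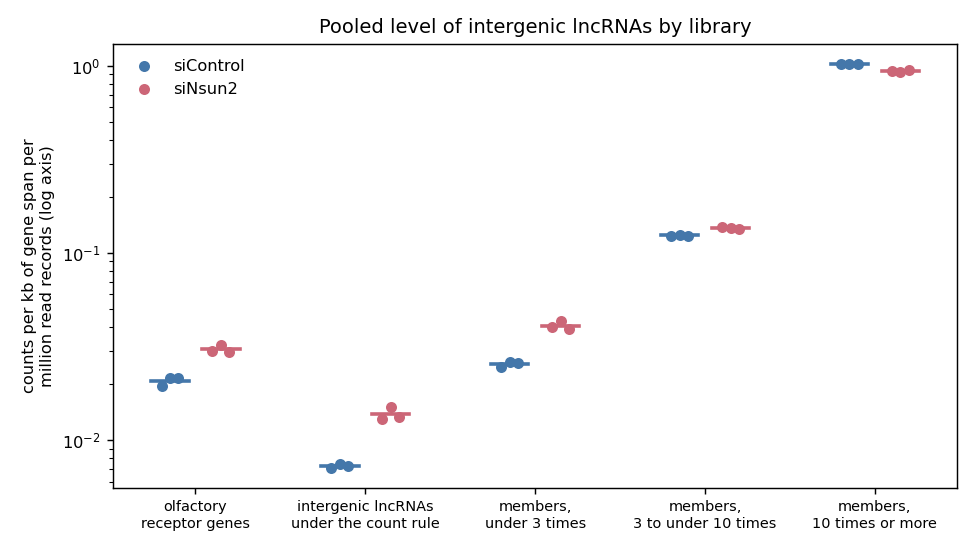
Summed level per kb of gene span per 1000000 read records (log axis) of the olfactory receptor genes, the intergenic lncRNA genes under the count rule and the 3 bands of members, without Gm26917. Points are libraries and bars are group means. The siNsun2 libraries lie above the siControl libraries in every set but the highest band, where they lie at 0.940, 0.928 and 0.953 below siControl values of 1.02.

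The lowest band was higher in siNsun2 on each chromosome examined. On the 18 chromosomes with at least 20 members of the lowest band, their pooled level was 1.41 to 1.71 times higher in siNsun2, with a median of 1.59. Chromosome X (25 members) was the lowest and chromosome 7 (100 members) the highest. Chromosome X was the only one of the 18 below the olfactory receptor value of 1.47. Split into 4 equal groups by distance from the nearest coding gene, the band was 1.58, 1.65, 1.60 and 1.58 times higher from the nearest to the farthest group. By gene span, the same values were 1.68, 1.71, 1.61 and 1.58 from the shortest to the longest. By GC content of the transcript, they ran from 1.54 in the lowest group through 1.57 and 1.64 to 1.69 in the highest. These values are a description without a test. They include members that met the count rule through siNsun2 counts alone. By span, the shortest group held 39034 counts and the longest 412000. Over the 1090 members with 10 counts in all 6 libraries the pooled level was 1.58 times higher, and no split was made for them.

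**Figure D2:**
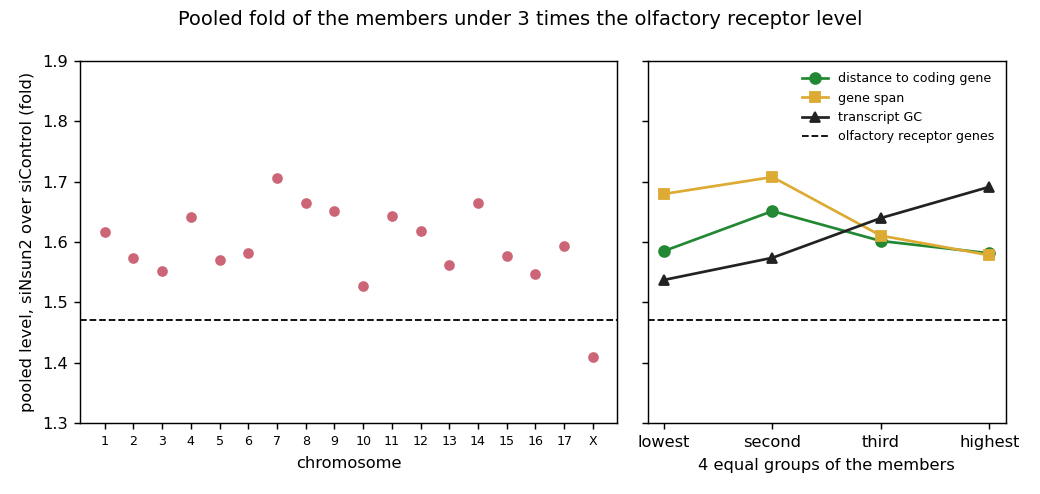
Pooled fold, siNsun2 over siControl, of the members under 3 times the olfactory receptor level by chromosome (left) and by 4 equal groups of distance, span and GC content (right). The dashed line is the olfactory receptor value of 1.47, and the vertical axis starts at 1.3. Chromosome X alone lies below the line, and the GC series runs from 1.54 to 1.69.

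Single members were then tested in a fit of all genes, with TMM scaling. Over 27603 genes, 25.8% were higher and 24.3% lower in siNsun2 at an adjusted p under 0.05 (edgeR quasi-likelihood), and the median log2 change was 0.14. Of the 1963 members, 1924 passed the filter on low counts, and 791 of these rose and 50 fell. Their median log2 change was 0.67. Among the 1400 members with 10 counts in every library, 650 rose and 49 fell, with a median of 0.59. At least 2-fold, 348 members rose and 3 fell, beside 8.15% and 0.232% of all genes, which pool all levels. Of the 348, 332 were in the lowest band, and the 2-fold share of all genes was not counted at that level. With 10 counts in every library 207 members rose and 2 fell by at least 2-fold, without a share of all genes under the same rule.

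The calls ran along the level of the members. In the lowest band 719 of 1565 tested members rose, 45.9%, and 1 fell, and the median log2 change was 0.74 (quartiles 0.46 and 1.06). Of all genes tested at this level 47.5% were called higher and 0.172% lower, so that the share of members was close to that of genes in general. The 1 that fell was Gm6410, chosen after its values were seen, at 1.07, 1.25 and 1.24 CPM in siControl and 0.557, 0.898 and 0.667 CPM in siNsun2 (log2 change -0.74, SE 0.30). In the middle band 57 of 242 rose (23.6%) and 9 fell (3.72%), with a median of 0.33, beside 18.2% and 10.5% of all genes at that level. The 580 tested olfactory receptor genes had a median of 0.67, and 104 of them were called higher and 3 lower.

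Among the 117 members at least 10 times above background, 15 rose (12.8%) and 40 fell (34.2%), with a median log2 change of -0.15. Of all 10788 tested genes that far above background, 4.57% were called higher and 57.6% lower, and their median was -0.19. Not one of the 15 rises reached 2-fold, and among the 40 falls only 2610035D17Rik did, beside 0.148% and 0.334% of all genes at this level. All siNsun2 libraries lay above all siControl libraries in 18 of the 117 members and below them in 45, compared with 5.65% and 60.9% of all genes at this level. The balance of calls moved with the scaling. Scaled by the total of gene counts, 22 rose and 21 fell, and with TMM factors taken from the genes at least 10 times above background 24 rose and 18 fell. The median of the 117 members turned sign as well, to 0.03 and 0.05. These scalings moved the median of all genes up by 0.18 and 0.20.

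**Figure D3:**
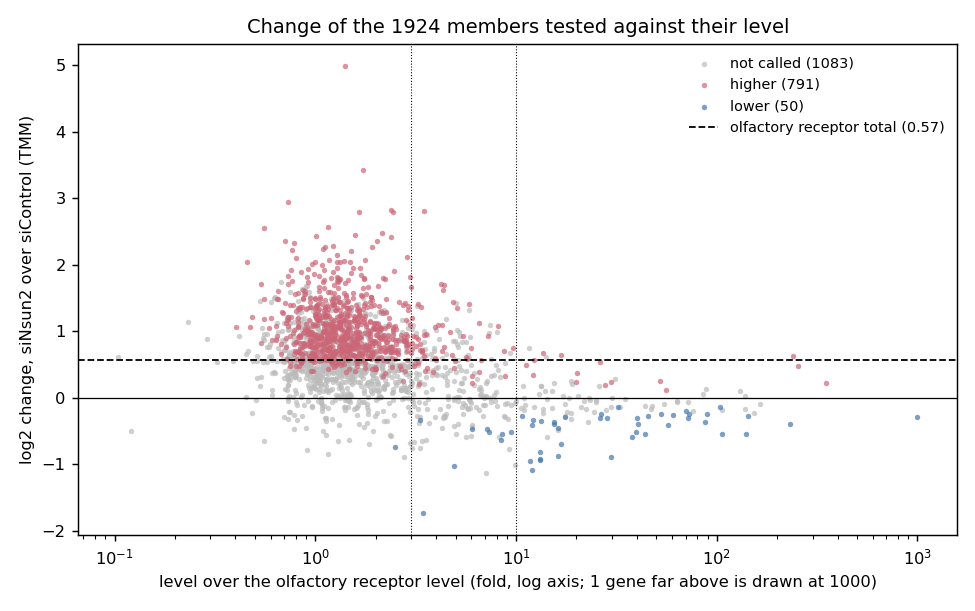
Log2 change, siNsun2 over siControl with TMM scaling, of the 1924 tested members against their level as a fold over the olfactory receptor level (log axis), coloured by call. The dashed line marks the summed olfactory receptor genes at 0.57 and the dotted lines the band edges at 3 and 10 times. The 791 members called higher lie mostly left of 3 times, and those right of 10 times have a median of -0.15, which is 0.03 under total gene counts.

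Each member was also tested relative to the olfactory receptor genes, with their summed counts as the size of a library. This moved every log2 change by about 0.57. Of all 27603 genes, 3.66% were then called higher and 45.4% lower, with a median of -0.43. Of the 791 members called higher under TMM, 108 were still called higher, 674 (85.2%) were not called and 9 were called lower. Over all members 108 were called higher and 185 lower, with a median of 0.10. Without the 10 highest olfactory receptor genes in the sum, these were 73, 197 and 0.04. Among the 1400 members with 10 counts in every library, 73 were called higher and 182 lower, with a median of 0.02. The number higher by at least 2-fold was 10, compared with 45 among all members. The share of all genes at 2-fold was not counted on this scale, so 2-fold counts on it stand without a comparison. The 580 tested olfactory receptor genes, taken singly, had a median of 0.11 on this scale, with 14 called higher and 15 lower. In the lowest band 104 members exceeded the olfactory receptor genes and 26 fell short, with a median log2 difference of 0.17, which was 0.11 for the 1090 with 10 counts in every library. These were 6.65% and 1.66% of those tested, beside 7.53% and 4.66% of all genes at this level. In the middle band these counts were 4 and 65 (1.65% and 26.9%), with a median of -0.24, beside 1.54% and 45.6%. In the highest band 0 members exceeded the olfactory receptor genes and 94 of 117 fell short, with a median of -0.71, beside 0.185% and 91.2% of all genes at that level.

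The 108 members that exceeded the olfactory receptor genes were weakly covered, with 66 to 4385 counts over the 6 libraries and a median of 333.5. Of the 108, 35 had under 10 counts in 1 or more libraries, and 15 of these reached 10 counts in every siNsun2 and no siControl library. The log2 difference of the other 73 ran from 0.26 to 1.71. In the Pscp1 WT library 87 of the 108 had under 10 counts. Gm12440 on chromosome 3, at 1.41 times the olfactory receptor level, was a member through its siNsun2 counts alone, so that its difference follows from the rule and is given without a test. It had 0, 2 and 0 counts in siControl and 28, 22 and 27 counts in siNsun2 and lay close to the detection limit in both groups. The most abundant was 4933427D06Rik on chromosome 6, with 498, 544 and 509 counts in siControl and 895, 963 and 976 counts in siNsun2, at a log2 difference of 0.26 (SE 0.11, adjusted p = 0.0382 by edgeR quasi-likelihood).

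The 4 such members of the middle band, named after their values were seen, were 4930519A11Rik, Gm28747, 1700084D21Rik and Gm6416, of which Gm28747 met the count rule in siNsun2 libraries alone. Gm6416 on chromosome 13, at 5.11 times the olfactory receptor level, was the highest of them. It stood at 0.685, 0.892 and 0.327 CPM in siControl and 1.50, 1.41 and 1.97 CPM in siNsun2, a log2 difference of 0.79 from the olfactory receptor genes (SE 0.29). No count of Gm6416 was found in the Pscp1 WT library.

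The 8 largest rises and the 8 largest falls are described next. They were taken from called members at least 10 times above background whose groups did not overlap. Their calls and the lack of overlap follow from that choice. Platr3 (ENSMUSG00000084762.1) rose from a high level. It encodes a pluripotency-associated transcript and stood 239 times above the olfactory receptor level, with 22.0, 22.7 and 22.6 CPM in siControl and 35.7, 34.4 and 33.8 CPM in siNsun2. The groups did not overlap. It rose by 0.63 on the log2 scale (SE 0.06, adjusted p = 1.75e-16 by edgeR quasi-likelihood). The nearest coding gene, Plcb4, a phospholipase C, begins 6.95 kb downstream on the same strand and had a log2 change of -0.04.

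Platr28 (ENSMUSG00000057215.6, chr7:107243022-107300396, plus strand, 57.4 kb) stood at 44.7, 48.4 and 46.5 CPM in siControl and 66.9, 65.1 and 69.8 CPM in siNsun2. The groups did not overlap, and the rise was 0.53 on the log2 scale (SE 0.04, adjusted p = 1.03e-19 by edgeR quasi-likelihood). Gm33838 (ENSMUSG00000111059.1, chr9:35301722-35307599, minus strand), 254 times above background, stood at 46.6, 48.1 and 46.9 CPM in siControl and 64.9, 70.0 and 62.3 CPM in siNsun2 (log2 change 0.48, SE 0.04). Its groups did not overlap, and the Pscp1 WT library held 22 counts of it, compared with 20998 over the 6 libraries.

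C330004P14Rik was at 7.27, 8.05 and 7.47 CPM in siControl and 12.4, 11.7 and 11.3 CPM in siNsun2, without overlap (log2 change 0.64, SE 0.10). The nearest coding gene, Nmbr, which encodes a bombesin-family receptor, lies 1021 kb away. Gm12690, upstream of the gene for the transcription factor Foxd3 by 83.3 kb, had the largest change of the members at least 10 times above background that rose. It stood at 1.08, 1.78 and 1.31 CPM in siControl and 2.21, 1.89 and 2.57 CPM in siNsun2, with groups that lay close together (log2 change 0.68, SE 0.22, edgeR quasi-likelihood, adjusted p = 0.00868).

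The other 3 members in the rule for the largest rises were weak. Gm48395 stood at 2.10, 2.39 and 2.19 CPM in siControl and 4.25, 2.89 and 2.73 CPM in siNsun2 (log2 change 0.56), where replicate 1 was the high library. Gm20005 had a log2 change of 0.49 and Platr7 of 0.37. The calls of Gm12690, Gm48395, Gm20005 and Platr7 were each lost when a single library was left out. For Gm12690 this was siControl replicate 1 (log2 change 0.52) or siNsun2 replicate 3 (0.56), for Gm48395 siNsun2 replicate 1 (0.33), for Gm20005 siControl replicate 2 (0.39), siNsun2 replicate 2 (0.46) or 3 (0.42), and for Platr7 siControl replicate 3 (0.27) or siNsun2 replicate 1 (0.25). Platr7 was also not called by DESeq2, with DESeq2 size factors (0.31 in both) or without the filter (0.35), and Gm20005 was not called by DESeq2 (0.43). Relative to the olfactory receptor genes, none of the 8 was called, with log2 differences from -0.20 to 0.12 (adjusted p = 0.285 to 0.989, edgeR quasi-likelihood).

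2610035D17Rik (ENSMUSG00000087259.7) had the largest fall of the members at least 10 times above background. This lncRNA gene of 158 kb on chromosome 11 stood at 98.7, 95.0 and 99.0 CPM in siControl and 46.5, 45.6 and 45.6 CPM in siNsun2. Replicates differed little and the groups lay far apart. The level fell by 1.09 on the log2 scale (SE 0.04, adjusted p = 1.33e-42 by edgeR quasi-likelihood). Slc39a11, the zinc transporter gene 43.0 kb upstream on the same strand, had a log2 change of -0.59. The span of this gene at the olfactory receptor density would account for 4.92% of its siControl and 15.5% of its siNsun2 level, and with that share taken off the log2 change was -1.26.

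9030404E10Rik (ENSMUSG00000116660.1, chr16:30021842-30039479, minus strand) stood at 14.0, 14.0 and 13.4 CPM in siControl and 8.89, 8.20 and 8.55 CPM in siNsun2, without overlap. It fell by 0.69 on the log2 scale (SE 0.09, edgeR quasi-likelihood, adjusted p = 3.99e-10). Its divergent neighbour at 24.9 kb is Hes1, which encodes a transcriptional repressor of the Notch pathway, with a log2 change of -0.63. Gm20610 (chr10:61046422-61051900, minus strand) stood at 7.46, 8.26 and 8.09 CPM in siControl and 4.60, 3.79 and 4.50 CPM in siNsun2 (log2 change -0.89, SE 0.12). The coding gene nearest to Gm20610, Pcbd1, was at -0.03 with a wide error (SE 0.44).

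Weaker members fell as well. Gm29630 stood at 3.16, 3.62 and 4.36 CPM in siControl and 1.66, 2.10 and 2.15 CPM in siNsun2 (log2 change -0.91). Gm33027 stood at 3.32, 2.32 and 3.08 CPM and at 1.40, 2.04 and 1.05 CPM (-0.96), while Plpp4, a lipid phosphatase gene 6.69 kb away and convergent with it, rose by 0.85 on the log2 scale. In both genes the siNsun2 values all lay under the siControl values. Gm48584 had a log2 change of -0.88, Gm48023 of -0.82 and Gm49504 of -0.93. The call of Gm49504, at 1.35, 0.943 and 1.67 CPM in siControl and 0.892, 0.770 and 0.413 CPM in siNsun2, was lost without siControl replicate 3 (-0.74) or siNsun2 replicate 3 (-0.67). All 8 members fell short of the olfactory receptor genes, by log2 differences of -1.66 to -1.26.

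**Figure D4:**
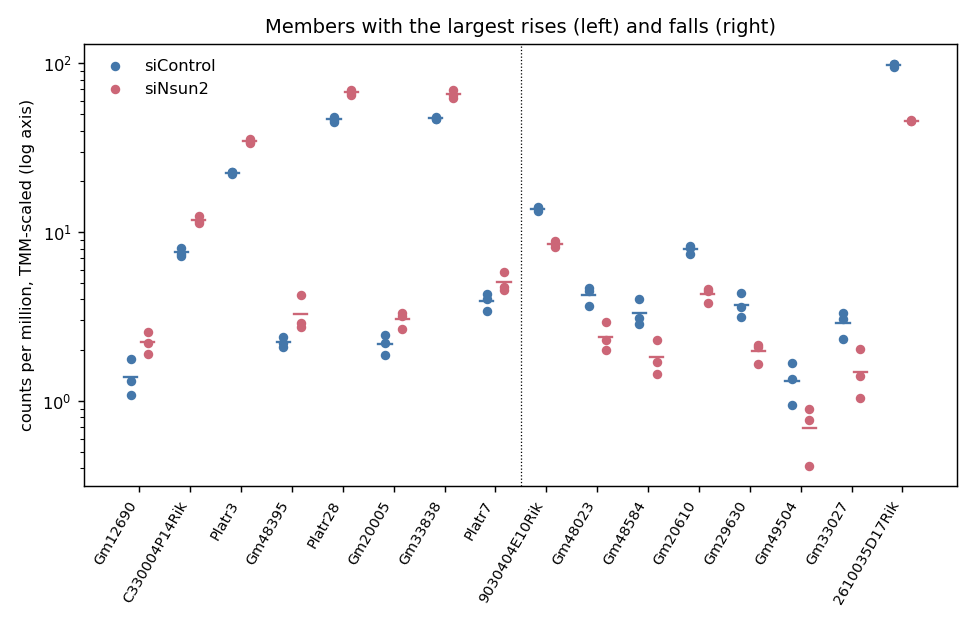
TMM-scaled CPM (log axis) of the 8 members with the largest rises and the 8 with the largest falls among those called, at least 10 times above background and without overlap. Points are libraries and bars are group means. 2610035D17Rik lies near 98 CPM in siControl and 46 CPM in siNsun2, and Gm49504, Platr7 and Gm12690 show the narrowest gaps between the groups.

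**Figure D5:**
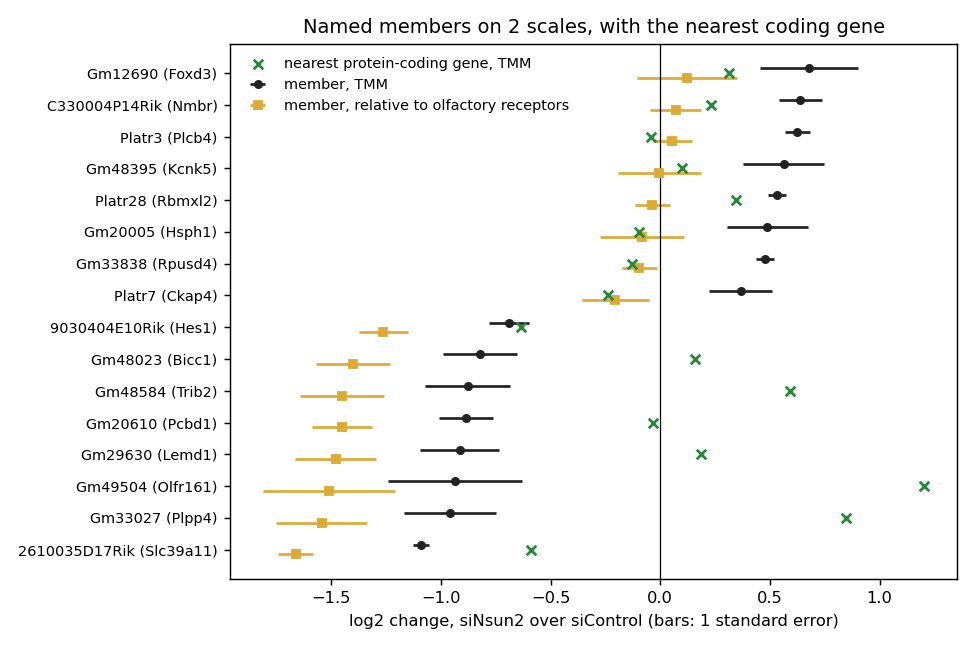
Log2 change, siNsun2 over siControl, of the same 16 members under TMM (circles) and relative to the olfactory receptor genes (squares), with bars of 1 standard error, and of the nearest protein-coding gene under TMM (crosses). The 8 members at the top lie at 0.37 to 0.68 under TMM and at -0.20 to 0.12 on the olfactory receptor scale, and the 8 at the bottom lie below 0 on both.

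The nearest coding genes of the highest band were compared by their log2 changes. Over 116 members with a tested neighbour (108 distinct coding genes), Pearson's r of the log2 changes was 0.02 and Spearman's rho 0.06, and 70 pairs had the same sign. The genes share libraries and scaling, and some share a neighbour. For the 30 members downstream of a coding gene on the same strand r was 0.44 and rho 0.26, for the 35 upstream on the same strand -0.18 and 0.04, for the 25 divergent pairs 0.21 and 0.17 and for the 26 convergent pairs -0.42 and -0.27. For 38 pairs within 20 kb r was -0.07, and for 78 farther apart it was 0.07.

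By abundance, the members were dominated by Gm26917 on chromosome 17, a single-exon gene at a copy of the ribosomal RNA precursor. It held 32998558 counts over the 6 libraries. Its share of gene counts was 9.54%, 9.10% and 8.88% in siControl and 8.57%, 8.61% and 8.47% in siNsun2, so that it decides any sum over members. All members together took 9.53% ± 0.328 (SD, n = 3) of gene counts in siControl and 9.03% ± 0.0865 in siNsun2. Without Gm26917 the direction turned, to 0.356% ± 0.00606 and 0.484% ± 0.0123. Its reads come from a repeated sequence, and its level is uncertain for that reason.

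The next most abundant members moved in both directions. AU020206 (chr7:75769038-75782099, minus strand), 350 times above background, stood at 163, 161 and 155 CPM in siControl and 188, 182 and 186 CPM in siNsun2, and rose by 0.22 on the log2 scale (SE 0.03). 9330185C12Rik stood at 148 ± 3.04 and 160 ± 4.88 CPM and also rose, by 0.12, although neither DESeq2 nor edgeR with DESeq2 size factors gave a call (0.06 in both). Relative to the olfactory receptor genes both fell short, at log2 differences of -0.36 and -0.45. BC002059 (83.6 ± 1.78 and 64.7 ± 1.87 CPM) fell by 0.37, and Gm40040 (47.9 ± 1.73 and 36.3 ± 1.93 CPM) fell by 0.40. Gm32856 was at 78.4 ± 0.815 and 71.5 ± 2.08 CPM, a log2 change of -0.13 that was 0.05 under total gene counts and 0.06 with factors from the genes well above background, and its call was lost with a filter at 50 counts (-0.08). 4930461G14Rik, at 74.8 ± 3.18 and 76.5 ± 0.444 CPM, was not called, but it was called higher under total gene counts (0.21), with factors from the genes well above background (0.23) and with a filter at 50 counts (0.09).

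Lists of known lncRNA genes contributed 13 members. Of 48 stem-cell lncRNA genes, 41 were in the tables with 42 entries and 12 were members, since of the entries 16 had another biotype, 10 overlapped a gene, 3 lay within 5 kb of a coding gene and 1 was under the count rule. Platr3, Platr7 and Platr28 rose, Bvht fell and the remaining 8 were not called, with a median log2 change of -0.07. Of all genes 25.8% were called higher and 24.3% lower, and of those at least 10 times above background 4.57% and 57.6%. Of 12 nuclear lncRNA genes, 1 was a member, Carmn. None of 14 imprinted or X-inactivation genes and none of 26 small-RNA host genes was a member.

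Bvht (Braveheart), a lncRNA gene of the cardiac lineage, stood at 9.72, 8.95 and 9.43 CPM in siControl and 8.12, 6.96 and 7.68 CPM in siNsun2 (log2 change -0.30, SE 0.10, edgeR quasi-likelihood, adjusted p = 0.0113). The groups did not overlap, and the call was lost without siNsun2 replicate 2 (-0.24), under total gene counts (-0.12) and with factors from the genes well above background (-0.11). Carmn, which lies beside Bvht, was at 1.32 ± 0.0685 and 1.81 ± 0.328 CPM and was not called. It was called higher under total gene counts (log2 change 0.64) and with factors from the genes well above background (0.66). Halr1, the lncRNA next to the Hoxa cluster, was at 26.1 ± 0.386 and 25.1 ± 0.249 CPM (log2 change -0.05), and was called higher with factors from the genes well above background (0.15). Eprn (ephemeron), a lncRNA of the exit from naive pluripotency, was at 5.13 ± 0.235 and 4.56 ± 0.212 CPM (-0.17).

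The other Platr members were not called. Platr11, 165 times above background, had a log2 change of -0.09 (SE 0.09), Platr6 of -0.09 (SE 0.10), Platr27 of -0.19 (SE 0.12) and Platr26 of -0.21 (SE 0.10). Leaving out siControl replicate 1 (-0.28) or siNsun2 replicate 2 (-0.27) gave a lower call for Platr26, as did DESeq2 size factors and DESeq2 (-0.27 in both), all read records as the total (-0.23) and no filter (-0.23). Leaving out siControl replicate 1 (-0.30) gave a lower call for Platr27. Platr15, with 100 counts in all, was at 0.159, 0.252 and 0.115 CPM in siControl and 0.191, 0.658 and 0.238 CPM in siNsun2, where replicate 2 was the high library and the groups overlapped. D130017N08Rik was at 0.812 ± 0.188 and 0.937 ± 0.273 CPM.

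At the edges of the rule, Gm11535 was the weakest member, with 0, 10 and 1 counts in siControl and 4, 12 and 13 in siNsun2. Gm39164 followed with 13, 2 and 0 counts and 3, 12 and 12 counts. Just outside lay Gm8817, with 8, 7 and 7 counts in siControl and 29, 8 and 28 in siNsun2, and Gm33474, with 3, 5 and 2 counts and 32, 18 and 9 counts. By distance, Gm10451 was just inside at 5005 bp from a coding gene and Gm49745 just outside at 4979 bp.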

How the data were processed

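Chromatin-associated RNA was isolated from mES cells by detergent lysis, a sucrose cushion and urea extraction of nuclei, depleted of ribosomal RNA and made into stranded total-RNA libraries. The authors deposited 1 table of unscaled read counts for each library. Per the submitters' processing notes and methods, the authors used Trimmomatic 0.39, HISAT2 2.2.1 (mm10) and HTSeq 0.12.4. The 12 K562 libraries were not used here. Spike-in lines were not found in the tables, so every level is relative to the other reads of its library.

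Gene models came from GENCODE M21 (GRCm38), which matched 99.93% of gene identifiers. Of 6457 genes nested in a gene on the same strand 99.8% were at 0, and of 6276 on the opposite strand 7.04%, so counts were taken as stranded and over whole gene spans. Summary lines were kept out of the library sizes. Reads with more than 1 alignment, 4.77% to 4.83% of records in the 6 libraries, were set aside by the authors. Replicate pairs differed by more than sampling noise (chi-square per degree of freedom 3.87 to 5.41).

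All genes passing filterByExpr were fitted together with edgeR 4.0.16 (quasi-likelihood, robust, TMM, limma 3.58.1, R 4.3.3), two-sided, with Benjamini-Hochberg adjustment, and the method was tested on simulated data. A second fit took the summed olfactory receptor counts as library size. DESeq2 1.42.0, other scalings, filters, distances and left-out libraries were alternatives. Named members were the 8 largest rises and falls among called members at least 10 times above the olfactory receptor level with groups that did not overlap, the 6 highest by level per kb and by CPM, and listed genes. The members and lists were chosen with earlier results of these data known.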

Additional observations from a re-analysis of the deposited data

Results flagged for a closer look

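The Pscp1 WT library entered no comparison, and a named member was singled out where its share of the counts of genes other than Gm26917 was at least 2 times that of the highest siControl library. This held for 4 of 33 named members. Platr28 was 4.32 times, Platr7 3.42 times, Gm48023 3.38 times and Eprn 2.13 times the highest siControl library. By the same measure 6 named members were at least 2 times below the lowest siControl library. It is 1 library of another experiment, so these ratios have no replicate error and were not tested.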

How the results depend on the processing

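The numbers of called, higher and lower members (841, 791 and 50) became 351, 348 and 3 at a 2-fold threshold, and lower calls became 25 under total gene counts and 22 with factors from genes at least 10 times above the olfactory receptor level. With 1 library left out they were 604 to 746, 561 to 700 and 43 to 51. The median log2 change of the members, 0.67, was 0.61 under DESeq2 size factors and by DESeq2, 0.85 under total gene counts, 0.87 with factors from genes well above background and 0.63 to 0.67 with 1 library left out. Relative to the olfactory receptor genes, 293 members were called, 108 higher and 185 lower. A 2-fold threshold gave 85, 45 and 40, a distance of 20 kb, chosen after seeing the data, gave 121 lower, and left-out libraries gave 225 to 284, 73 to 118 and 152 to 183. Without the 10 highest olfactory receptor genes 73 were higher and 197 lower. Without those that overlap a gene on their strand these were 93 and 185. With counts outside annotated genes as the total they were 118 and 187.

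Of the members at least 10 times above background, 55 were called, 15 higher and 40 lower. Total gene counts gave 21 lower, factors from genes at that level 24 higher and 18 lower, DESeq2 9 higher, and a 2-fold threshold 1, 0 and 1. At 3 times above background 121 were called and 72 higher, and at 30 times 26, 5 and 21. Left-out libraries gave 47 to 56, 11 to 15 and 36 to 41. On the olfactory receptor scale 94 were called, 0 higher and 94 lower, with 16 lower at 2-fold, 163 called, 4 higher and 159 lower at 3 times, 42 called and all lower at 30 times, and 86 to 94 with 1 library left out. The share of all genes was not counted at 3 or 30 times, so the counts there stand without a comparison. At 10 times 57.6% of all genes were called lower under TMM and 91.2% on the olfactory receptor scale.

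The member share of gene counts, 0.948 times siControl, was 1.44 without the 10 highest members and 1.36 without Gm26917, an alternative chosen after seeing the data, and 0.934 to 0.966 with 1 library left out. Without 1 library, the olfactory receptor level was 1.43 to 1.496 times siControl, and the ratio to it was 1.08 to 1.10 in the lowest band (1.07 for members with 10 counts in all 6 libraries and 1.09 with the genes under the count rule, both chosen after seeing the data), 0.732 to 0.767 in the middle and 0.614 to 0.649 in the highest. Gm32856 changed sign under total gene counts (0.048) and with factors from genes well above background (0.064), as did Halr1 under the latter (0.15, then called). Of the alternative values of the 33 named members, 456 left the call as it was. Without a change of sign, 22 lost it and 12 gained one. A further 3 changed both sign and call, those of Gm32856, which lost its call in these settings, and of Halr1, which gained one. Among the 456, D130017N08Rik, not called, moved from 0.20 to -0.08 with the olfactory receptor level taken off. With 1 library left out its lowest value was -0.04. Another 1, of 2610035D17Rik with the olfactory receptor level taken off, kept its sign and moved to -1.26. The 8 named rises were positive and the 8 named falls negative in all 120 of theirs, which do not include the olfactory receptor scale.

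The replicate numbers did not pair the libraries (r of same-numbered deviations 0.00076, 0.023 and -0.031). With the replicate block 771 members rose and 49 fell, and 107 and 179 relative to the olfactory receptor genes. The cause of these shifts was not tested. Depth limits the lowest band, where a single library often held under 10 counts of a member.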
